A study of Mus musculus with 2 samples.

Results

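The 6 genes Ear1, Ear6, Ear10, Epx, Prg2 and Prg3 encode proteins stored in or associated with the granules of eosinophils, and they were followed here in granulocytes and monocytes sorted from mouse bone marrow. They were chosen as the gene probes that carry these symbols on the array, which gave 7 probes of 41174 and 6 genes of 19730 named genes. Granulocytes formed the first group and monocytes the second, each from wild type male C57BL/6 mice, and 1 array with the dye Cy3 was hybridised per group from 0.5 µg of total RNA. The sources used here do not state the age, how many mice were pooled or which surface markers were gated. With 1 array per group there is no replicate check and no test between the cell types, so errors below are those of the spot measurement alone. Precision is limited by having so few arrays.

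Eosinophils are granulocytes whose large granules hold cationic proteins that are released on activation. The major basic protein, encoded by Prg2, forms the granule core, and Prg3 encodes its close homologue. Epx encodes the eosinophil peroxidase of the granule matrix, an enzyme that oxidises halides. The Ear genes encode the eosinophil-associated ribonucleases, a mouse branch of the ribonuclease A superfamily that has grown by repeated gene duplication, so its members are close copies of one another. The myeloid growth factor interleukin 5, the transcription factors GATA1 and GATA2 and the chemokine receptor CCR3 are known for their part in the making and the trafficking of eosinophils.

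The probes are shown because what each of them can bind decides which gene its value belongs to. Each is 60 bases long and is written from the 5′ end in lower case, with capitals for the longest run of at least 10 bases that it shares exactly with another of these probes.
Ear10 probe: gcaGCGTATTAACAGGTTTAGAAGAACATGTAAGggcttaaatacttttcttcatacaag
Ear3 probe: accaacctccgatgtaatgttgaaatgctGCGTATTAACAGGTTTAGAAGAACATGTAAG
Ear6 probe listing 2 transcripts: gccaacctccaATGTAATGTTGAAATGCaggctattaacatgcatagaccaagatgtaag
Ear6 probe listing 1 transcript: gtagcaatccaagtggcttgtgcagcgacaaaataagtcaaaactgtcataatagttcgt
Ear1 probe: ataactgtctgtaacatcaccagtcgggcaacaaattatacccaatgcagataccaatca
Epx probe: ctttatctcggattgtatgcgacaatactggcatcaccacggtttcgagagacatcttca
Prg2 probe: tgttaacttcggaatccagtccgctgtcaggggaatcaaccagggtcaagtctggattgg
Prg3 probe: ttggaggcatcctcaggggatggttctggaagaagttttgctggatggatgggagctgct

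The Ear10 probe lists 4 RefSeq transcripts, of which 2 are named in the RefSeq gene table (assembly GRCm38.p6), as Ear10 and Ear2. The Ear3 probe, which is not a member by its symbol, lists the same 4 transcripts and shares a run of 31 bases with the Ear10 probe, so these probes report on the same group of transcripts. The first Ear6 probe lists 2 transcripts and shares 17 bases in a row with the Ear3 probe, and 49 of its 60 bases are the same in register. The second Ear6 probe and the probes of Ear1, Epx, Prg2 and Prg3 list 1 RefSeq transcript each and share no run of 10 bases with the others shown. At most 4 accessions are given per probe, so a further match to a family member cannot be read from the file.

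In the build mm8 of the files, the Ear1 probe lies on the minus strand of chromosome 14 at 42698911 to 42698970. The Ear6 probes lie on the plus strand of that chromosome at 50776075 to 50776134 and at 50776184 to 50776243. The Ear10 probe is placed on unassigned sequence (Un_random) at 625460 to 625519. The Epx probe lies on chromosome 11 at 87680981 to 87681040, the Prg2 probe on chromosome 2 at 84783481 to 84783540, and the Prg3 probe on chromosome 2 at 84792350 to 84793859, a span of 1510 bases for 60 bases of probe. The Prg2 and Prg3 probes are 8809 bases apart, and the genes follow each other in the order of the RefSeq table. Exon and UTR annotation of mm8 was not used here.

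All 7 probes were well above background on both arrays, so that each gene has a measured value in each cell type. Values are processed signals, the scanner software's background-subtracted spot intensities on a linear scale, with the error that its error model gives. For Ear1 the signal was 4272 ± 427 in granulocytes and 2373 ± 237 in monocytes. For Ear10 it was 3627 ± 363 in granulocytes and 1939 ± 194 in monocytes. For Ear6 the probe that lists 2 transcripts gave 2718 ± 272 in granulocytes and 1577 ± 158 in monocytes, and the other probe gave 812 ± 81.3 and 579 ± 57.9. The 4 ribonuclease probes were thus brighter on the granulocyte array as scanned.

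The granule protein genes went the other way as scanned. The Prg2 signal was 2673 ± 267 in granulocytes and 3177 ± 318 in monocytes. For Prg3 it was 123 ± 12.4 in granulocytes and 148 ± 14.9 in monocytes. For Epx it was 199 ± 20.0 in granulocytes and 280 ± 28.0 in monocytes. Within 1 error the paired values overlapped for Prg2 and Prg3 and not for Epx, and the sample labelled as monocytes gave signal above background for each of the 6 genes. In sorted bulk samples, fewer cells of a type and less RNA per cell cannot be told apart.

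**Figure D1:**
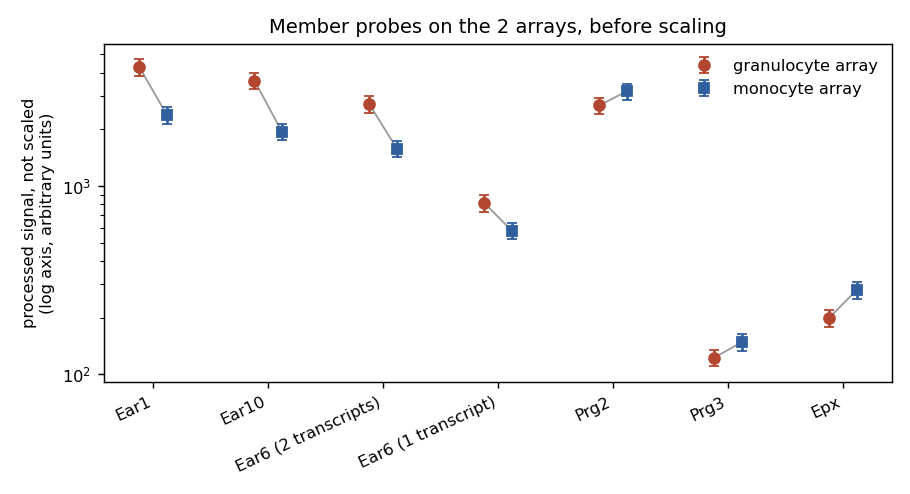
Processed signal of the 7 member probes on the granulocyte array (circles) and the monocyte array (squares), on a log axis in arbitrary units and before scaling; bars are the error of the scanner software's error model, with 1 array per cell type. The 4 probes of Ear1, Ear10 and Ear6 are higher on the granulocyte array and those of Prg2, Prg3 and Epx on the monocyte array.

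The arrays differed in brightness as a whole. The 75th percentile of gene spots was 339.4 for granulocytes and 620.9 for monocytes, and signals were divided by it before they were compared, which adds 0.87 on the log2 scale to every granulocyte minus monocyte difference. After this scaling the difference was 1.72 for Ear1, 1.77 for Ear10, and 1.66 and 1.36 for the probes of Ear6, each with an error of 0.20. As folds, Ear1 was 3.29-fold, Ear10 3.42-fold and Ear6 3.15-fold higher in granulocytes, with 2.57-fold by the second Ear6 probe. The difference was 0.62 for Prg2, 0.60 for Prg3 and 0.38 for Epx, with errors of 0.20, 0.21 and 0.20. Prg2 and Prg3, neighbours on chromosome 2, had nearly the same difference, and both values lay near the middle of all genes. Their probes share no run of 10 bases. The genes on either side of this pair gave -2.04 (Slc43a3) and 1.12 (P2rx3).

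Of the 6 genes, 3 (Ear1, Ear6 and Ear10) exceeded 2-fold toward granulocytes, 0 exceeded 4-fold in either direction and 0 exceeded 2-fold toward monocytes. Over the 15610 genes that rose above background somewhere, the shares past 2-fold were 29.1% toward granulocytes and 20.9% toward monocytes, and the shares past 4-fold were 8.54% and 10.4%. The members' 3 of 6 therefore stands beside a background in which such differences are common. The members' median was 1.14, against a median of 0.47 over the 14183 genes measured on both arrays. That median over all genes was -0.40 without scaling, when 0 of 6 members reached 2-fold either way, against 9.88% of genes toward granulocytes and 35.3% toward monocytes (3.72% and 19.3% past 4-fold). The unscaled values were 0.85 for Ear1, 0.90 for Ear10, 0.79 for Ear6, -0.25 for Prg2, -0.27 for Prg3 and -0.49 for Epx. The sign of the granule protein genes therefore hung on the scaling, and scaling by 9 spike-in controls gave 0.08 for Prg2, 0.06 for Prg3 and -0.16 for Epx.

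Positions relative to all genes do not move with such a constant. Ear10 lay 1.31, Ear1 1.25 and Ear6 1.19 above the median of all genes, at percentiles 89.1, 88.3 and 87.2 of the differences, and the second Ear6 probe lay 0.89 above it, at percentile 82.1. Prg2 lay 0.15 and Prg3 0.13 above the median, at percentiles 55.6 and 54.7, and Epx 0.09 below it (-0.09), at percentile 47.4. The ribonuclease genes were thus on the granulocyte side of the transcriptome, and the granule core and peroxidase genes were near its middle.

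**Figure D2:**
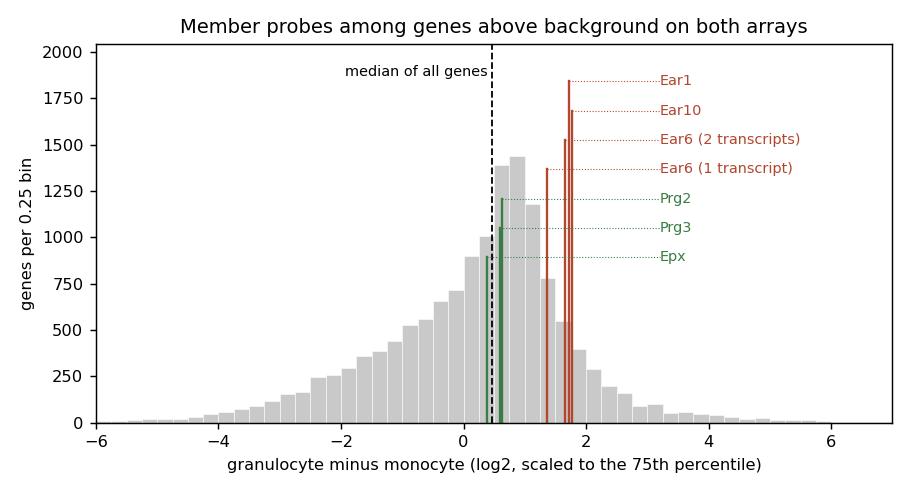
Histogram of granulocyte minus monocyte differences (log2, scaled to the 75th percentile) over the 14183 genes above background on both arrays, in bins of 0.25, with the member probes as coloured lines whose height carries no value. Prg2, Prg3 and Epx lie beside the dashed median of 0.47, and the probes of Ear1, Ear10 and Ear6 lie between 1.36 and 1.77.

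The ribonuclease members stood apart from the granule protein members, the peroxidase gene Epx and the homologues Prg2 and Prg3. The median difference of Ear1, Ear6 and Ear10 was 1.72 and that of Epx, Prg2 and Prg3 was 0.60, which leaves 1.12 between them. The lowest ribonuclease probe, the second of Ear6, exceeded the highest granule probe, that of Prg2, by 0.74 with an error of 0.29. Within the ribonuclease genes the range was 0.12, below the error of a single difference, so that the order of Ear1, Ear6 and Ear10 is not resolved. The Ear10 probe lists Ear2 as well, so its value is not of Ear10 alone. The Ear6 probes differed by 0.30 with an error of 0.29. Within Epx, Prg2 and Prg3 the range was 0.24, and their order is not resolved either.

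Under 11 other settings of scaling, background correction, spot filter and choice of probe, Ear1, Ear6 and Ear10 stayed above Epx, Prg2 and Prg3, with Ear10 absent where only probes that list 1 gene were used. The gap between the medians of these groups of genes ran from 0.94 to 1.12 over the 12 settings. Relative to the median of all genes in the same setting, Ear1 ran from 1.04 to 1.26 and Epx from -0.16 to 0.13. Scalings that add 1 constant cannot change this gap. In the authors' deposited table, the difference was 1.54 for Ear1, 1.59 for Ear10, 0.44 for Prg2, 0.42 for Prg3 and 0.20 for Epx.

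**Figure D3:**
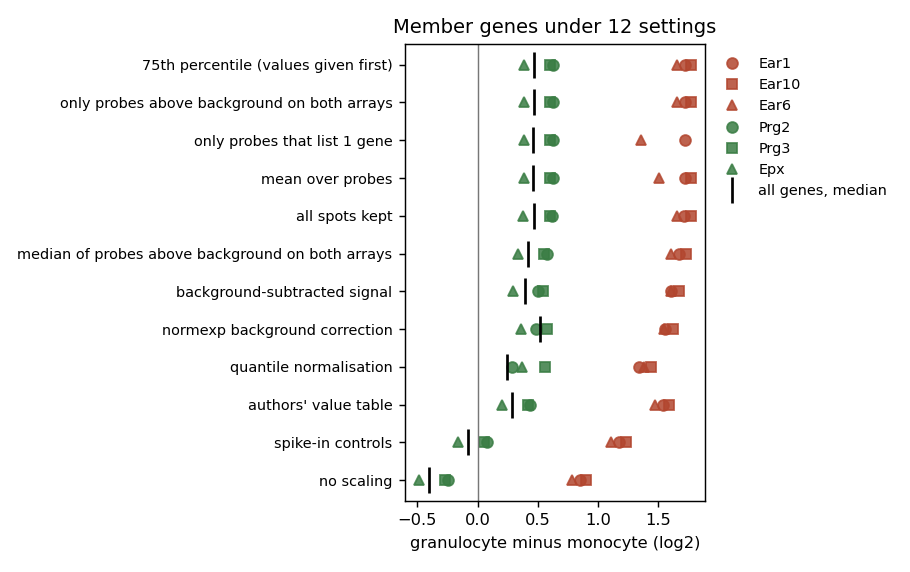
Granulocyte minus monocyte difference (log2) of each member gene under the 12 settings, with a black tick for the median of all genes in the same setting; Ear genes are red and granule protein genes green. The red points lie to the right of the green points in each row, and the green points cross 0 without scaling and, for Epx, with spike-in controls.

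The other ribonuclease A genes beside the Ear members were mixed in direction. Of the 12 genes of this list above background, including the ribonuclease inhibitor Rnh1, 3 passed 2-fold toward granulocytes and 6 toward monocytes, against 29.1% and 20.9% of all genes, and the median was -0.99, against 0.47. Without scaling, 0 passed toward granulocytes, and with normexp background correction 2 passed toward monocytes. That correction adds the same offset to every signal, which shrinks differences most where signals are dim. The 3 were Ear3 (1.73), whose probe overlaps that of Ear10, Rnase2a (1.65, named Ear11 on the array) and Rnase1 (1.40, and 2.99 by its other probe), the pancreatic-type ribonuclease. The Rnase2a signal was 8006 in granulocytes and 4676 in monocytes, a ratio like those of the Ear members.

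Rnase2b, named Ear5 on the array, was the ribonuclease of this branch that went the other way. Its signal was 102 in monocytes and 2.31 in granulocytes, where it was not well above background, so that it was at least 5.89-fold higher in monocytes, the bound being set by the lowest signal well above background on the granulocyte array. With normexp its difference was -0.52, short of 2-fold. Rnase6 gave -4.56 (signals 184 and 7959) and Rnase4 gave -4.09, with -3.63 by its other probe and -2.40 with normexp. Ang2, an angiogenin gene, was at least 6.43-fold higher in monocytes and Ang6 gave -2.08, which became -0.55 and -0.67 with normexp. Ang4 gave -1.12, with -3.15 by its other probe. Rnh1, which encodes the cytosolic inhibitor that binds ribonucleases of this family, gave -0.86. Rnase10 gave 0.09, and Ear14 and Rnase9 were not well above background on either array.

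Most of these genes lie on chromosome 14. The order of the RefSeq table places Ear1 and Ear10 side by side among the genes with a probe and Ear6 at the other end. Between Ear10 and Ear6 lie genes of opposite direction, among them Rnase4, Rnase6 and Rnase2b on the monocyte side. Rnase2b and Rnase2a, which flank Ang2 and Ear14 in this order, differed in direction.

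**Figure D4:**
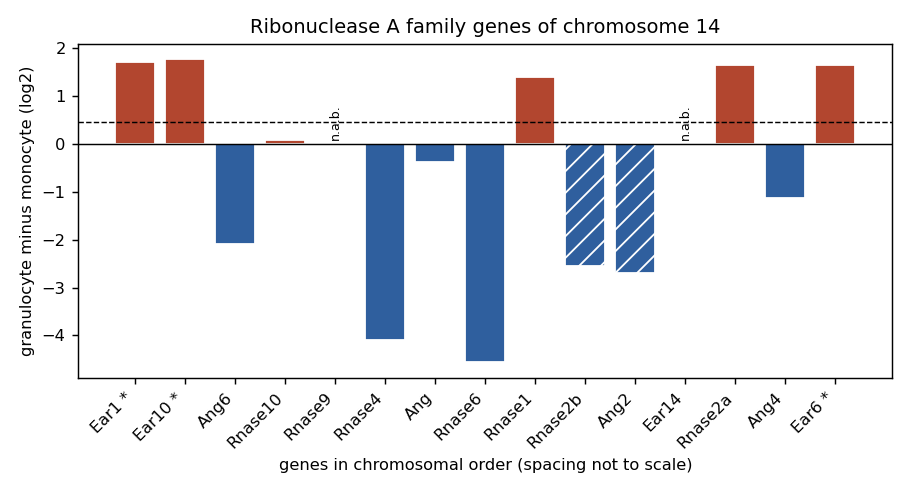
Granulocyte minus monocyte difference (log2, scaled to the 75th percentile) of ribonuclease A family genes in their order on chromosome 14, not spaced to scale; asterisks mark members, hatched bars are bounds for genes not well above background on the granulocyte array, n.a.b. marks genes not above background on either array, and the dashed line is the median of all genes, 0.47. The bars of Ear1, Ear10, Rnase1, Rnase2a and Ear6 point up between 1.40 and 1.77, while those of Rnase4 and Rnase6 reach -4.09 and -4.56.

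The promoters of 4 of these genes are shown because they are near copies while the values of the genes differ in direction. They come from RefSeq (GRCm38.p6), run from 250 bases before to 50 bases after the start, and carry in capitals each match to TTGCNNAA, the core of a C/EBP type site, sought on both strands.
Ear1 (chr14:43819590-43819889, - strand): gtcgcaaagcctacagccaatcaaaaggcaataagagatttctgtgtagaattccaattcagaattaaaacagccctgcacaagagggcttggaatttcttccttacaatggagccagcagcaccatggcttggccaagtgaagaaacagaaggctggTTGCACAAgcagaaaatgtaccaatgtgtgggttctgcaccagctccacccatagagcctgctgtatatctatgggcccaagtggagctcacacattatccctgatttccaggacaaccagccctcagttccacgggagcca
Ear10 (chr14:43923547-43923846, - strand): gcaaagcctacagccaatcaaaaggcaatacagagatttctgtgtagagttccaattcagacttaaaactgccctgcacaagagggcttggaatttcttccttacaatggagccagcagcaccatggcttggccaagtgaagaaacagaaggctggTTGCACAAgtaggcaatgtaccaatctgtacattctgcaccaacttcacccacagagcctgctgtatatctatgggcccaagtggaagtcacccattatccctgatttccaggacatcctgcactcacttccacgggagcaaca
Ear6 (chr14:51853518-51853817, + strand): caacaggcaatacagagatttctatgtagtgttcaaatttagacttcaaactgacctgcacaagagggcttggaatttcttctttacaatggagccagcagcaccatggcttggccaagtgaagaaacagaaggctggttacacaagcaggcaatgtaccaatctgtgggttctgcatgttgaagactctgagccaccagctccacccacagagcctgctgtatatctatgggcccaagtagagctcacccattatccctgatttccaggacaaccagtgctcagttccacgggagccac
Rnase2b (chr14:51162010-51162309, + strand): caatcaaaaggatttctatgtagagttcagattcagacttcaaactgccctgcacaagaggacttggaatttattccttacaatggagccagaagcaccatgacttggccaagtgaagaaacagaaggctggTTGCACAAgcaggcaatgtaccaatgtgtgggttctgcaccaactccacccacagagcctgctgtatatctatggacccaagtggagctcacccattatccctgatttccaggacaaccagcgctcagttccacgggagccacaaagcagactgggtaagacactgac

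In a global alignment 277 of 300 positions of the Ear1 promoter were identical in that of Ear10, 259 in that of Ear6 and 256 in that of Rnase2b. The match to TTGCNNAA starts 92 bases before the start in Ear1, 94 in Ear10 and 118 in Rnase2b, and these letters are not in the Ear6 window. Of all 32851 promoters of this length, 10.8% hold such a match. The letters AGATAA or TGATAA, a core of GATA sites, were found in 18.6% of all promoters and, of the 5 members with a promoter in the table, in that of Prg3. TATAAA was found in 13.6% of all promoters and, of these members, in that of Epx. GAGGAA, an ETS type core, was found in 28.3% of all promoters and in no member's window. The Epx and Prg3 promoters matched at 159 of 300 positions with each other, and at 160 and 154 with that of Ear1. These alignments held 90 to 98 gap positions, against 6 for Ear1 and Ear10, 42 for Ear1 and Ear6 and 52 for Ear1 and Rnase2b. Other pairs across families gave like counts, such as 156 for Ear6 and Epx and 153 for Ear14 and Prg3. Counts of this size therefore show no particular likeness. A match describes letters and is not a site.

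Among peroxidase genes, Epx differed from its relative Mpo, the peroxidase of neutrophil and monocyte precursors. The Mpo signal was 10902 in granulocytes and 158640 in monocytes, a difference of -2.99, which is 3.37 below that of Epx. Lpo, the lactoperoxidase gene, gave 187 in granulocytes and 182 in monocytes, a difference of 0.91. Mpo, Lpo and Epx lie close together on chromosome 11. Pxdn was not well above background on either array.

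Genes for the surface, growth factor response and transcription factors of eosinophils were set beside the members. Of 26 such genes above background, 17 passed 2-fold toward granulocytes and 3 toward monocytes, against 29.1% and 20.9% of all genes, and the median was 1.33, against 0.47. Toward granulocytes the count was 6 without scaling and 11 with spike-in controls. Many of them are also expressed by neutrophils or other myeloid cells. The lectin gene Siglecf gave signals of 272 in granulocytes and 162 in monocytes, a difference of 1.61. Ccr3, the eotaxin receptor, gave 58.6 and 36.1, a difference of 1.57, and 0.73 by its other probe. The Siglecf value lay near those of the Ear genes, while Ccr3 depended on its probe, with 1.15 by the mean over its probes and 1.09 with normexp.

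Gata2 gave 1.76, with 1.97 by its other probe and 1.07 with normexp, at signals of 46.0 and 24.9. Gata1 was printed on 10 spots and gave 0.94 with an SD of 0.18 between spots, at mean signals of 50.1 and 48.0. Il5ra, the chain that makes the interleukin 5 receptor specific, was not well above background on either array, and neither were the genes of the ligands interleukin 5 (Il5) and eotaxin (Ccl11).

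The largest differences in this list belonged to genes of wider myeloid expression. They were Cd300lf (4.25), the 5-lipoxygenase gene Alox5 (3.95), Cd24a (3.52), the interleukin 33 receptor gene Il1rl1 (3.29), Trib1 (2.91) and the short-chain fatty acid receptor gene Ffar2 (2.14). Il1rl1 gave 2.42 with normexp. Of its other probes, 1 gave a lower bound of 2.05 and 1 was not well above background on either array. On the monocyte side, Ccl24, which encodes a chemokine that attracts eosinophils, was at least 4.77-fold higher in monocytes (-0.26 with normexp). This bound uses its own granulocyte signal of 9.65, which was not well above background. Its other probe gave a bound of 2.19-fold, and the mean over its probes was -1.69. Adgre1, the F4/80 antigen, gave -1.84, the integrin gene Itga4 gave -1.09, with probes from -2.25 to 0.54, and Xbp1 gave -0.63.

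**Figure D5:**
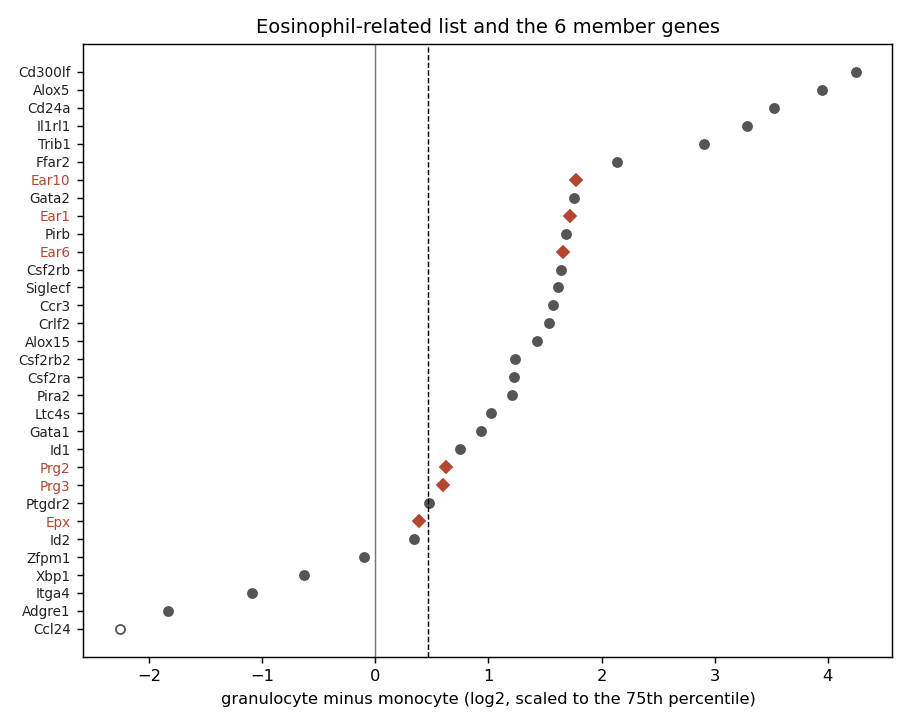
Granulocyte minus monocyte difference (log2, scaled to the 75th percentile) of the listed eosinophil-related genes above background (grey circles; open circle, bound) and of the 6 member genes (red diamonds), in order of value, with the dashed line at the median of all genes, 0.47. Ear1, Ear6 and Ear10 stand in the range that holds Gata2, Pirb, Csf2rb, Siglecf and Ccr3 among others, not all of which are eosinophil genes, and Prg2, Prg3 and Epx stand near the dashed line.

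Markers of other cells that the sorts could hold moved as well. All 11 neutrophil markers on the array passed 2-fold toward granulocytes (median 3.45). All 10 monocyte markers passed it toward monocytes (median -7.05), both in the direction of the labels. Against each array's 75th percentile, neutrophil markers had median levels of 8.57 in granulocytes and 3.14 in monocytes, and monocyte markers -1.36 and 5.47. As scanned, S100a9 (signals 293515 and 257392), S100a8 (209815 and 118703) and Camp (128785 and 81956) were bright on both arrays. These fell short of 2-fold without scaling, while Fpr1 (47406 and 293) was far dimmer in monocytes. Of all genes, 29.1% passed 2-fold toward granulocytes and 20.9% toward monocytes, with 8.54% and 10.4% past 4-fold. The 10 eosinophil markers above background, which include the members, had a median level of -0.54 in granulocytes and -1.54 in monocytes relative to each array's 75th percentile, and 6 of 10 were at least 2-fold higher in granulocytes. That count hung on the scaling. Without it, Ear1, Ear6, Ear10, Siglecf and Ccr3, which are among the 6, gave 0.70 to 0.90, short of 2-fold. The remaining one, Alox15, had signals of 54.5 in granulocytes and 37.0 in monocytes, also short of 2-fold. The 5 promyelocyte markers, the genes of early granule-forming precursors, were all at least 4-fold higher in monocytes (median -3.40), with median levels of 1.91 in granulocytes and 4.65 in monocytes. Of 7 basophil and mast cell markers, 6 were at least 2-fold higher in granulocytes (median 1.45), with median levels of -2.18 and -3.37, and all 7 were above background on at least 1 array. The basophil and mast cell count hung on the scaling too. Without it, Hdc, Cpa3 and Prss34 gave 4.16, 1.47 and 1.04. As scanned, Mcpt8 (signals 125 and 114) and Fcer1a fell short of 2-fold, and Cd200r3 was known only as a lower bound. The part of such cells in the values of the 6 members was not tested.

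In the longer basophil and mast cell list, 11 of 17 genes passed 2-fold toward granulocytes and 0 toward monocytes, against 29.1% and 20.9% of all genes, and the median was 1.19, against 0.47. Toward granulocytes the count was 4 without scaling and 6 with spike-in controls. The histidine decarboxylase gene Hdc (5.03), the carboxypeptidase gene Cpa3 (2.35), the tetraspanin gene Cd63 (2.14) and the basophil protease gene Prss34 (1.91) were highest, with Cyp11a1 and Cd200r3, known here only as lower bounds of 1.65 and 1.45, not placed in this order. Granulocyte signals were 111367 for Hdc and 31266 for Cd63, against 820 for Prss34 and 73.7 for Cpa3. Whether Hdc and Cd63 signal came from basophils or mast cells was not tested. Il3ra (-0.13), Mitf (-0.09), Ms4a2 (-0.07) and Il4 (0.16) were lowest, each within 2-fold. The 4 erythroid markers had a median of 1.80 and the 4 B-cell markers of 1.08.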

How the data were processed

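Per the file headers, the authors' deposited scanner files hold spot intensity read with Agilent Feature Extraction 10.5.1.1, background-subtracted and detrended on a linear scale and not scaled between arrays, with the build mm8. Per the file headers both arrays shared a slide and a scan. The authors' deposited value table is on a log2 scale and equalled the log2 processed signal plus a constant of -0.24 for granulocytes and -0.92 for monocytes, within 0.01 for 100.0% of probes with 1 spot. How the constants were set is not stated by any label or header.

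Control spots and outlier spots (143 and 103) were left out, and 0 gene spots were saturated. Each log2 signal was set against its array's 75th percentile, and spots of a probe were averaged. Probes were named through RefSeq accessions (24495 probes), otherwise by a current (6234) or a single older symbol (2386), and 8058 stayed unnamed. A gene was given by its probe above background on most arrays, then the brightest. Where a gene was dim on 1 array, its fold is a bound against the lowest signal well above background there, or against its own signal if higher.

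No test was made with 1 array per group, and counts use 2-fold and 4-fold. The median SD of the difference between repeated spots was 0.06, over 160 probes with at least 5 spots, and the error model gave 0.20 per member probe. Of each further list, the 4 highest and 4 lowest genes, those at least 4-fold different and a few fixed ones are named. With 2 arrays no likeness of patterns between genes could be measured. Members and lists were chosen with earlier results of these data known. Alternatives included normexp background correction with limma 3.58.1 (offset 50). The steps were tested on simulated data built from the monocyte array with few genes changed. The bounds and the choice of scaling were not tested by it, since both simulated arrays had the same probes above background. Alignments used Biopython 1.88. Of the lists, Cebpe was not analysed here.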

Additional observations from a re-analysis of the deposited data

How the results depend on the processing

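The 11 alternatives change the processing of the same 2 arrays, so they carry no measure of animal-to-animal variation. Without scaling, the median over the 6 members was 0.27, the number at least 2-fold higher in granulocytes 0, and the medians of the eosinophil-related, basophil and ribonuclease lists 0.46, 0.32 and -1.86, with 6, 4 and 0 genes at least 2-fold higher in granulocytes and 1 basophil list gene at least 2-fold higher in monocytes. With spike-in controls the members' median was 0.59 and the list medians 0.79, 0.65 and -1.54, with 11 eosinophil-related and 6 basophil list genes at least 2-fold higher in granulocytes. After normexp correction the list medians were 1.09, 0.99 and -0.49, with 2 ribonuclease genes at least 2-fold higher in monocytes. Quantile normalisation gave 0.95 for the eosinophil-related and -1.26 for the ribonuclease list. The ribonuclease median was -1.47 by the mean over probes and -0.62 over probes above background on both arrays, where Rnase2b and Ang2 drop out. Over probes that list 1 gene the members' median was 0.62, since Ear10 drops out. No difference of at least 2-fold among the members and named genes changed sign under the alternatives run, and 13 of 435 recomputed values changed sign, all of differences within 2-fold (Epx, Prg2, Prg3, Il4, Rnase10 and Ms4a2). No paired analysis was possible because each group has 1 array.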
